A study of Homo sapiens with 32 samples.

Results

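The HOX cluster genes are the homeobox genes whose annotation symbol is HOX, a cluster letter from A to D and a number. Of 19775 genes with a single-symbol probe set on the arrays, 28 met this rule: 1 of cluster A, 10 of B, 9 of C and 8 of D, read by 44 probe sets, of which the brightest per gene was used. The RefSeq gene table (GRCh38.p14) names 39 such genes, 11 of them in cluster A on chromosome 7, 10 in cluster B on chromosome 17, 9 in cluster C on chromosome 12 and 9 in cluster D on chromosome 2. The others are not analysed here, so cluster A is represented by HOXA2 alone. Of the 28 members, 25 were over log2 5 in 3 or more of 32 arrays and were tested: HOXA2, all 10 HOXB genes, 8 HOXC genes and 6 HOXD genes.

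HOX proteins are homeodomain transcription factors that give cells their position along the body axis. Within a cluster the genes lie in the order in which they are used from head to tail, with low numbers at the 3′ end, and genes of the same number in different clusters are paralogs. Polycomb group proteins keep HOX genes silent and trithorax group proteins keep them active, and the fly counterpart of SMARCA2 and SMARCA4, Brahma, is a trithorax group protein that was found through HOX genes. In adult lung, cells keep part of the embryonic HOX pattern, mostly of clusters A and B.

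RNA was measured on Affymetrix arrays in a pair of human lung cancer cell lines, H1299 and A549, both known to lack functional SMARCA4. SMARCA2 and SMARCA4 are the alternative ATPases of the SWI/SNF (BAF) chromatin remodelling complexes. Every line stably carried 1 hairpin, either shLuc against luciferase as the control or S2sh7 against the part of SMARCA2 that encodes its ATPase domain. It also carried 1 cDNA: GFP as the control, or a wild-type (WT), bromodomain-mutated (BRD) or ATPase-inactive (ATPdead) form, of SMARCA2 for the H1299 cells and of SMARCA4 for the A549 cells. The 16 groups are thus H1299 with shLuc or S2sh7 and GFP, WT, BRD or ATPdead SMARCA2, with 3 arrays per group, and A549 with shLuc or S2sh7 and GFP, WT, BRD or ATPdead SMARCA4, with 1 array per group. The cells were grown in RPMI with serum and received no other treatment. The labels call the H1299 arrays biological replicates without saying whether they are separate infections or cultures, so a p-value there measures only the spread between these samples.

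The start of a HOX gene can be shown for members that the RefSeq promoter table holds. It held 11 of the 28 members in 10 distinct windows, of which the 250 bases before the start are used here. The window of HOXC4 and HOXC5 is shown because RefSeq gives both genes, and HOXC6, the same start, and these genes were called higher with S2sh7 in H1299 at 3 (HOXC4) or 4 (HOXC5 and HOXC6) of the cDNAs. HOXA2 and HOXD8 are shown because they rose and fell with S2sh7 in A549. Capitals mark matches on either strand to TGATNNAT, a motif bound by HOX proteins together with their PBX partners.
HOXC4 and HOXC5, chr12:54016638-54016887, plus strand: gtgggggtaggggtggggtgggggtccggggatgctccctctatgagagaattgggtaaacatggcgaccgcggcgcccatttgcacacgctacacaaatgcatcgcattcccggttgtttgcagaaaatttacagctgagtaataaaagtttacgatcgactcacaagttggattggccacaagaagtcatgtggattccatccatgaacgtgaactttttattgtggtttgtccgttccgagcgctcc
HOXA2, chr7:27102684-27102933, minus strand: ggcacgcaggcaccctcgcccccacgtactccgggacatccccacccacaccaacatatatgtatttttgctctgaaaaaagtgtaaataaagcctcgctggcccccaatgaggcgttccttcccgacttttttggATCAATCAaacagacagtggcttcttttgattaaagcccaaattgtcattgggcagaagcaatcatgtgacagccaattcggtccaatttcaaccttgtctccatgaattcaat
HOXD8, chr2:176129455-176129704, plus strand: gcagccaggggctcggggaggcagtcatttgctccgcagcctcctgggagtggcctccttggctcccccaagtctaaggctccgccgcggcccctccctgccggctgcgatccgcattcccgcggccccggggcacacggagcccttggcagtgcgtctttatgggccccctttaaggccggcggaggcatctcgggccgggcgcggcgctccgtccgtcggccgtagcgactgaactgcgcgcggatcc
The HOXA2 window held 1 match, ATCAATCA on the minus strand of the window, and the other windows shown held none. The motif was in 3 of the 10 member windows (HOXA2, HOXB1 and HOXD11) and in 6.47% of 35116 RefSeq windows of the same length, which is a count of letters and not of bound sites. The HOXD8 window held 28 CpG dinucleotides, the HOXC4 and HOXC5 window 14 and the HOXA2 window 8, against a median of 11 over all windows.

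The checks of the libraries are brief. Of 5 SMARCA2 probe sets tested, 4 were called lower with S2sh7 in both lines. In H1299 GFP cells the one with the smallest p averaged 6.14 under shLuc and 4.84 under S2sh7 (limma difference -1.30, adjusted p = 5.87e-09), and in A549 it fell by 3.16 over the 4 cDNAs (adjusted p = 1.52e-04). The fifth, a dimmer one, was not called in either line. Of the 4, 1 read the cDNA most clearly in H1299. It averaged 5.41 with shLuc and 4.64 with S2sh7 in GFP cells. With WT, BRD and ATPdead it averaged 6.91, 6.75 and 6.77 with shLuc and 6.25, 6.06 and 5.82 with S2sh7. On this probe set, S2sh7 cells with a SMARCA2 cDNA thus stayed above shLuc cells with GFP. On the other called probe sets they lay below them. Another of the 4 also read higher with the cDNAs. With shLuc it averaged 5.69 with GFP and 6.17, 6.11 and 6.22 with WT, BRD and ATPdead. With S2sh7 it averaged 4.33 with GFP and 4.97, 4.84 and 4.96 with WT, BRD and ATPdead. SMARCA4 RNA differed too: of 7 probe sets tested, 4 were called lower with S2sh7 in H1299 GFP cells (-0.68 to -0.29) and 2 were called higher in A549 over the 4 cDNAs (0.23 and 0.76, adjusted p = 0.0423 and 0.0356). The A549 probe set at 0.76 read 4.56 with shLuc and 4.97 with S2sh7 in GFP cells, 6.64 and 7.88 with WT, 6.91 and 7.91 with BRD and 6.85 and 7.24 with ATPdead. It was higher with all 3 SMARCA4 cDNAs than with GFP, and higher with S2sh7 than with shLuc at each cDNA, so the hairpin groups differ in more than SMARCA2, and the part of this in the HOX results was not tested. Levels are log2 RMA intensities, and the values of the lines follow separate distributions (array medians of 26.4 to 27.3 in H1299 and 40.1 to 41.2 in A549 before log2), so no test was made between lines, and line and labelled batch cannot be told apart. The epithelial keratins KRT8 and KRT18 were high in both lines, whereas EPCAM and CDH1 lay at 2.27 to 3.11 in H1299 and at 6.48 to 10.09 in A549. The summed intensity of 10 epithelial and lung markers was lower with S2sh7, at 6652 to 7867 against 9583 to 10278 in H1299 and 19777 to 20406 against 28315 to 32174 in A549, while that of 9 leukocyte, endothelium and fibroblast markers was 279 to 329 against 283 to 314 and 630 to 639 against 625 to 685. All HOX comparisons of S2sh7 with shLuc carry this keratin difference, and its part in them was not tested.

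HOX levels are given for each gene on its own probe set, and since probe sets differ in brightness no order is drawn between genes. Of the 28 members, 17 were over log2 5 in all 32 arrays, 19 in all 24 H1299 arrays and 22 in all 8 A549 arrays. Because the A549 distribution sits higher, log2 5 is not the same level in the lines. PECAM1, the highest of 6 blood and vessel genes read here as markers of absent cells, reached 5.61 in H1299 and 6.56 in A549. A HOX level over 5 is thus not by itself a sign of expression. In all H1299 arrays 17 members exceeded that marker, and 7 did in all A549 arrays (HOXB3, HOXB7, HOXB8, HOXB9, HOXB13, HOXC6 and HOXC11). The fibroblast gene COL1A1, not among the 6, read higher, at 6.70 to 7.10 in H1299 and 8.28 to 8.49 in A549. Fewer members exceeded it in all arrays of a line: HOXB2, HOXB3, HOXB4, HOXB7 and HOXC6 in H1299 and HOXB7 alone in A549.

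**Figure D1:**
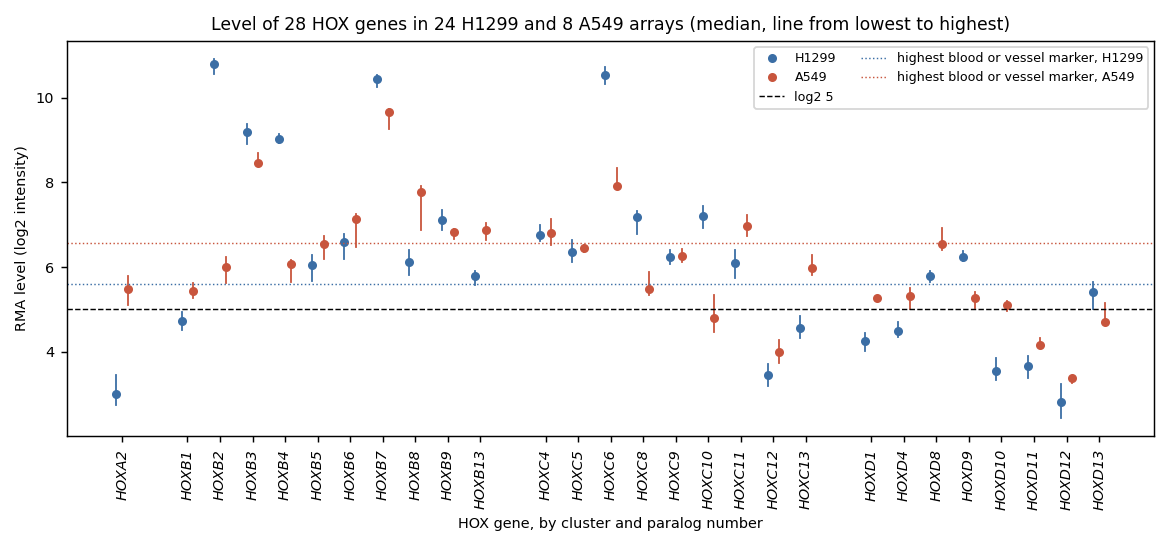
Median log2 RMA intensity of the 28 HOX genes (x axis, by cluster and paralog number) in the 24 H1299 and 8 A549 arrays, with vertical lines from the lowest to the highest array, a dashed line at log2 5 and dotted lines at the highest blood or vessel marker of each line. The H1299 and A549 medians of HOXB2 and HOXB4 lie far apart, and HOXA2 lies under the dashed line in H1299 and over it in A549.

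Cluster A was represented by HOXA2, which patterns the second pharyngeal arch and the hindbrain. Its median was 2.99 (2.75 to 3.45) over the H1299 arrays and 5.48 (5.10 to 5.80) over the A549 arrays, so it passed the filter through A549 alone. In cluster B, HOXB1, a hindbrain gene, was at 4.73 (4.52 to 4.93) in H1299 and 5.44 (5.27 to 5.62) in A549. HOXB2, which acts in the hindbrain and facial motor neurons, was at 10.80 (10.57 to 10.92) in H1299 and 6.01 (5.62 to 6.25) in A549. HOXB3 was at 9.19 (8.91 to 9.38) and 8.46 (8.42 to 8.69), and HOXB4, known for expanding blood stem cells, at 9.02 (8.92 to 9.14) and 6.08 (5.64 to 6.16). Among all genes HOXB2 stood at percentile 96.4 of the medians in H1299 and 44.6 in A549, and HOXB4 at 85.2 and 45.6.

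HOXB5, which is active in the developing lung and gut, was at 6.05 (5.67 to 6.28) in H1299 and 6.54 (6.18 to 6.73) in A549, and HOXB6 at 6.60 (6.20 to 6.77) and 7.13 (6.48 to 7.25). HOXB7, often raised in carcinomas, was at 10.45 (10.26 to 10.53) and 9.67 (9.25 to 9.74). HOXB8, which holds myeloid progenitors immature, was at 6.12 (5.82 to 6.41) and 7.78 (6.87 to 7.93). Among these 4, HOXB8 is the member whose place among all genes was higher in A549 than in H1299 by over 10 percentiles. HOXB9 was at 7.11 (6.87 to 7.36) and 6.83 (6.67 to 6.90), and HOXB13, a prostate lineage factor, at 5.78 (5.59 to 5.90) and 6.89 (6.65 to 7.04).

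In cluster C, HOXC4 was at 6.76 (6.60 to 7.00) in H1299 and 6.80 (6.51 to 7.13) in A549, HOXC5 at 6.35 (6.13 to 6.65) and 6.45 (6.35 to 6.52), and HOXC6 at 10.54 (10.33 to 10.74) and 7.92 (7.88 to 8.35). HOXC8 and HOXC9, both thoracic genes, were at 7.18 (6.79 to 7.32) and 5.47 (5.33 to 5.89), and at 6.25 (6.08 to 6.41) and 6.27 (6.12 to 6.42). HOXC10, a lumbar gene, was over log2 5 in all 24 H1299 arrays, at 7.20 (6.92 to 7.43), and in 1 A549 array, at 4.80 (4.46 to 5.35). The posterior genes HOXC11 and HOXC13, the latter a regulator of hair keratins, were at 6.11 (5.74 to 6.39) and 6.97 (6.73 to 7.22), and at 4.57 (4.32 to 4.84) and 5.97 (5.80 to 6.27). HOXC12 stayed under log2 5 in every array, with a highest value of 4.28. The HOXC levels thus stood lower among genes in A549 for HOXC6, HOXC8 and HOXC10 (percentiles 68.0, 36.4 and 26.3, against 95.3, 64.6 and 64.9 in H1299).

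In cluster D, 6 of 8 genes passed the filter. HOXD8 was at 5.79 (5.64 to 5.92) in H1299 and 6.54 (6.41 to 6.93) in A549, and HOXD9 at 6.24 (6.15 to 6.37) and 5.26 (5.02 to 5.40). HOXD13, the digit gene, was over log2 5 in all H1299 arrays, at 5.42 (5.02 to 5.64), and in 1 A549 array, at 4.71 (4.62 to 5.16). HOXD1, HOXD4 and HOXD10 passed the filter through A549 alone, with H1299 medians of 4.24, 4.50 and 3.55 and A549 medians of 5.27, 5.31 and 5.11. HOXD10 was just inside the filter with 6 arrays over log2 5, and HOXD11, whose highest value was 4.31, was the nearest outside it. HOXD12 stayed at or under 3.42.

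With S2sh7 in H1299, HOX genes of clusters B and C differed from shLuc in both directions, with called differences from -0.33 to 0.44 log2. S2sh7 was the sole hairpin against SMARCA2, and an effect of it apart from SMARCA2 was not tested. S2sh7 was compared with shLuc at each cDNA, in 4 comparisons that share no array, by limma over 24 arrays with Benjamini-Hochberg adjustment over 14695 genes and calls at adjusted p under 0.05. With GFP, 7 of 25 HOX genes were called (4 higher, 3 lower), a share near the 29.7% of all genes called (13.6% higher, 16.1% lower). With WT 12 were called (8 higher, 4 lower) where 26.5% of all genes were (14.9% higher, 11.6% lower). With BRD 12 were called (7 higher, 5 lower) where 23.7% of all genes were (11.1% higher, 12.7% lower). With ATPdead 10 were called (6 higher, 4 lower) where 28.4% of all genes were (16.5% higher, 11.9% lower). Without replicate 2 of S2sh7 with WT the count with WT was 7. The median difference over the 25 genes with GFP was 0.022, against 0.013 over all genes.

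Called the same way in all 4 comparisons were 7 of 25 HOX genes, of which HOXB2, HOXB3 and HOXB9 fell and HOXB7, HOXC5, HOXC6 and HOXC10 rose. Over all genes 12.9% were called the same way in all 4, 6.06% higher and 6.81% lower. Of the 25, 14 were called in at least 1 comparison, 11 in none and 0 in opposite directions, all by limma. The share of all genes in each of these classes was not counted, so they are not read as a result about HOX genes.

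HOXB2 read 10.91, 10.87 and 10.88 in the GFP arrays with shLuc and 10.61, 10.57 and 10.59 with S2sh7, a fall of 18.7% (-0.30 (SE 0.024, adjusted p = 1.05e-08)). With the SMARCA2 cDNAs its differences were -0.19, -0.22 and -0.22 for WT, BRD and ATPdead (adjusted p = 8.53e-06, 1.49e-06 and 1.17e-06). With WT HOXB2 read 10.92, 10.91 and 10.90 with shLuc and 10.76, 10.69 and 10.73 with S2sh7. The HOXB2 arrays with BRD read 10.89, 10.92 and 10.88 with shLuc and 10.69, 10.66 and 10.68 with S2sh7, and those with ATPdead 10.88, 10.84 and 10.87 with shLuc and 10.66, 10.66 and 10.64 with S2sh7. All 12 arrays with shLuc lay above all 12 with S2sh7, which ranged from 10.57 to 10.76 against 10.84 to 10.92. The fall was small beside the level of the gene and larger than the spread between replicates.

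HOXB3 read 9.36, 9.21 and 9.24 with shLuc and GFP and 8.95, 8.91 and 9.04 with S2sh7 and GFP (-0.30 (SE 0.053, adjusted p = 0.000181)), and the groups did not overlap. Its differences with WT, BRD and ATPdead were -0.14, -0.17 and -0.23 (adjusted p = 0.0497, 0.0230 and 0.00221). With WT HOXB3 read 9.24, 9.24 and 9.25 with shLuc and 9.19, 9.11 and 9.00 with S2sh7. The HOXB3 arrays with BRD read 9.31, 9.20 and 9.38 with shLuc and 9.06, 9.16 and 9.15 with S2sh7, and those with ATPdead 9.28, 9.25 and 9.24 with shLuc and 9.04, 9.08 and 8.96 with S2sh7. No group pair overlapped. HOXB3 with WT lay at the threshold, and its call was lost without replicate 1, 2 or 3 of shLuc (adjusted p = 0.1001, 0.1001 and 0.106) or replicate 2 or 3 of S2sh7 (0.086 and 0.257, the latter with a difference of -0.094). HOXB3 with BRD was lost without replicate 1 or 3 of shLuc or replicate 1 of S2sh7, at adjusted p of 0.071, 0.123 and 0.104.

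HOXB9, which acts in the thoracic skeleton and breast, read 7.31, 7.25 and 7.29 with shLuc and GFP and 6.94, 7.03 and 7.02 with S2sh7 and GFP (-0.28 (SE 0.042, adjusted p = 3.22e-05)). Its differences with WT, BRD and ATPdead were -0.29, -0.26 and -0.22 (adjusted p = 2.94e-05, 0.000123 and 0.000462). With WT HOXB9 read 7.26, 7.36 and 7.30 with shLuc and 6.99, 6.97 and 7.08 with S2sh7. The HOXB9 arrays with BRD read 7.23, 7.22 and 7.20 with shLuc and 6.87, 7.05 and 6.95 with S2sh7, and those with ATPdead 7.18, 7.17 and 7.14 with shLuc and 6.96, 6.88 and 6.98 with S2sh7. The shLuc arrays of each cDNA lay above its S2sh7 arrays.

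**Figure D2:**
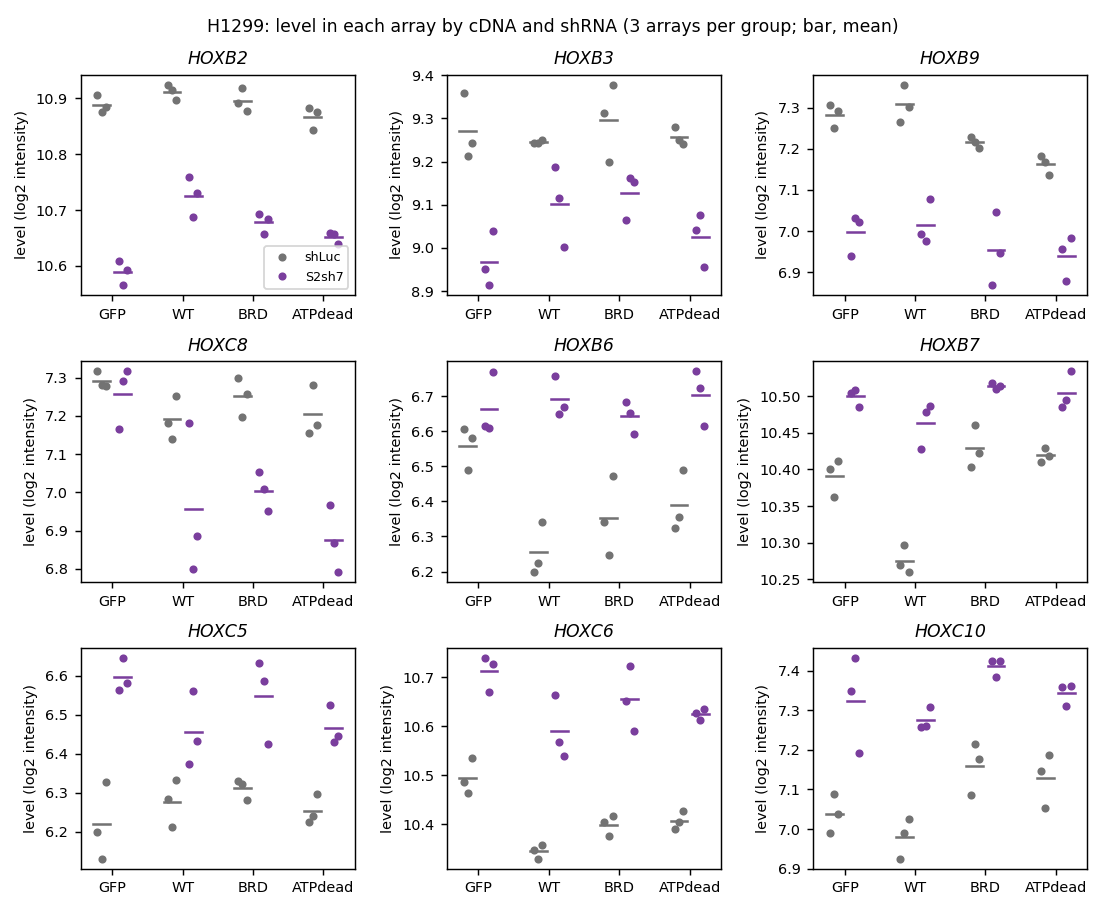
Log2 RMA intensity of 9 HOX genes in each H1299 array, by cDNA on the x axis, with shLuc in grey and S2sh7 in purple, 3 points per group and a bar at the mean. HOXB2, HOXB3 and HOXB9 lie lower with S2sh7 at every cDNA, HOXC5, HOXC6 and HOXC10 lie higher, and HOXC8 overlaps with GFP and WT; each panel has its own axis.

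Between HOXB3 and HOXB9 on the chromosome, HOXB7 was called higher at all 4 cDNAs, HOXB6 at 3, HOXB4 and HOXB5 at 1 and HOXB8 at none. HOXB7 read 10.40, 10.36 and 10.41 with shLuc and GFP and 10.50, 10.51 and 10.49 with S2sh7 and GFP (0.11 (SE 0.025, adjusted p = 0.00209)), without overlap. With WT HOXB7 read 10.27, 10.30 and 10.26 with shLuc and 10.43, 10.48 and 10.49 with S2sh7. The HOXB7 arrays with BRD read 10.40, 10.46 and 10.42 with shLuc and 10.52, 10.51 and 10.51 with S2sh7, and those with ATPdead 10.41, 10.43 and 10.42 with shLuc and 10.49, 10.49 and 10.53 with S2sh7. With WT, BRD and ATPdead its differences were 0.19, 0.085 and 0.085 (adjusted p = 8.91e-06, 0.0159 and 0.0127), and those with BRD and ATPdead were lost without replicate 1 of shLuc with BRD (adjusted p = 0.080) and replicate 3 of S2sh7 with ATPdead (adjusted p = 0.063).

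HOXB6 was not called with GFP, where it read 6.61, 6.49 and 6.58 with shLuc and 6.62, 6.61 and 6.77 with S2sh7 (0.11 (SE 0.062, adjusted p = 0.221)). It rose with WT by 35.4%, from 6.20, 6.22 and 6.34 to 6.76, 6.65 and 6.67 (0.44 (SE 0.062, adjusted p = 2.64e-05)). With BRD it read 6.34, 6.25 and 6.47 with shLuc and 6.68, 6.65 and 6.59 with S2sh7 (0.29 (SE 0.062, adjusted p = 0.00190)). With ATPdead the values were 6.32, 6.35 and 6.49 and 6.77, 6.72 and 6.61 (0.31 (SE 0.062, adjusted p = 0.000739)). The S2sh7 arrays of the 4 cDNAs lay together at 6.59 to 6.77, and the shLuc arrays of the 3 SMARCA2 cDNAs at 6.20 to 6.49, against 6.49 to 6.61 with GFP.

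HOXB4 and HOXB5 were called with WT alone. HOXB4 read 9.01, 8.92 and 8.96 with shLuc and 9.03, 9.12 and 9.14 with S2sh7 (0.13 (SE 0.039, adjusted p = 0.0159)), and it was lost without replicate 2 of shLuc, replicate 2 of S2sh7 or replicate 3 of S2sh7 (adjusted p = 0.075, 0.065 and 0.077). HOXB5 read 5.98, 5.67 and 5.87 and 6.17, 6.23 and 6.15 (0.34 (SE 0.087, adjusted p = 0.00632)). A difference between cDNAs is tested further on, and being called with 1 cDNA does not show that it differed from the others. HOXB1, HOXB8 and HOXB13 were called with no cDNA, with differences of -0.19 to 0.13.

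Of the cluster C genes with a shared start, HOXC5 and HOXC6 were called higher at all 4 cDNAs and HOXC4 at 3. HOXC5 read 6.20, 6.13 and 6.33 with shLuc and GFP and 6.56, 6.65 and 6.58 with S2sh7 and GFP, a rise of 29.9% (0.38 (SE 0.057, adjusted p = 3.87e-05)). With WT, BRD and ATPdead its differences were 0.18, 0.24 and 0.21 (adjusted p = 0.0236, 0.00444 and 0.00763), and the one with WT was lost without replicate 1 or 2 of shLuc or replicate 2 of S2sh7 (adjusted p = 0.052, 0.108 and 0.141). With WT HOXC5 read 6.28, 6.21 and 6.33 with shLuc and 6.37, 6.56 and 6.43 with S2sh7. The HOXC5 arrays with BRD read 6.33, 6.32 and 6.28 with shLuc and 6.63, 6.59 and 6.43 with S2sh7, and those with ATPdead 6.23, 6.24 and 6.30 with shLuc and 6.52, 6.43 and 6.45 with S2sh7. The groups did not overlap at any cDNA.

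HOXC6, a thoracic gene also raised in prostate cancer, read 10.49, 10.46 and 10.53 with shLuc and GFP and 10.74, 10.67 and 10.73 with S2sh7 and GFP (0.22 (SE 0.035, adjusted p = 8.27e-05)). Its differences with WT, BRD and ATPdead were 0.25, 0.26 and 0.22 (adjusted p = 2.49e-05, 1.85e-05 and 8.17e-05). With WT HOXC6 read 10.35, 10.33 and 10.36 with shLuc and 10.66, 10.57 and 10.54 with S2sh7. The HOXC6 arrays with BRD read 10.41, 10.38 and 10.42 with shLuc and 10.65, 10.72 and 10.59 with S2sh7, and those with ATPdead 10.39, 10.40 and 10.43 with shLuc and 10.63, 10.61 and 10.64 with S2sh7. No group pair overlapped. HOXC4 was called with WT, BRD and ATPdead (0.16, 0.17 and 0.17, adjusted p = 0.0154, 0.0131 and 0.0116) and not with GFP (0.10, adjusted p = 0.115). With GFP it read 6.70, 6.75 and 6.72 with shLuc and 6.79, 6.82 and 6.86 with S2sh7. With WT HOXC4 read 6.64, 6.61 and 6.60 with shLuc and 6.70, 6.89 and 6.75 with S2sh7. The HOXC4 arrays with BRD read 6.64, 6.79 and 6.77 with shLuc and 6.85, 7.00 and 6.86 with S2sh7, and those with ATPdead 6.69, 6.71 and 6.73 with shLuc and 6.85, 6.90 and 6.88 with S2sh7. Its call was lost with WT without replicate 2 of S2sh7 (0.11, adjusted p = 0.112) and with BRD without replicate 1 of shLuc or 2 of S2sh7 (0.094 and 0.085).

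HOXC10 rose at all 4 cDNAs. It read 6.99, 7.09 and 7.04 with shLuc and GFP and 7.35, 7.43 and 7.19 with S2sh7 and GFP (0.29 (SE 0.050, adjusted p = 0.000214)), and its differences with WT, BRD and ATPdead were 0.30, 0.25 and 0.21 (adjusted p = 0.000179, 0.00101 and 0.00295). With WT HOXC10 read 6.92, 6.99 and 7.03 with shLuc and 7.26, 7.26 and 7.31 with S2sh7. The HOXC10 arrays with BRD read 7.09, 7.22 and 7.18 with shLuc and 7.42, 7.38 and 7.42 with S2sh7, and those with ATPdead 7.15, 7.05 and 7.19 with shLuc and 7.36, 7.31 and 7.36 with S2sh7. No group pair overlapped. Between these genes on the chromosome lies HOXC8, which moved the other way with WT, BRD and ATPdead (-0.23, -0.25 and -0.33, adjusted p = 0.0196, 0.0164 and 0.00163). With ATPdead HOXC8 read 7.15, 7.28 and 7.18 with shLuc and 6.97, 6.87 and 6.79 with S2sh7, without overlap, and with WT the arrays overlapped (7.18, 7.14 and 7.25 against 7.18, 6.80 and 6.89). With BRD it read 7.30, 7.20 and 7.26 with shLuc and 7.05, 7.01 and 6.95 with S2sh7. With GFP it read 7.32, 7.28 and 7.28 with shLuc and 7.17, 7.29 and 7.32 with S2sh7 and was not called (-0.034, adjusted p = 0.763). The WT call was lost without replicate 3 of shLuc or replicate 2 or 3 of S2sh7 (adjusted p = 0.080, 0.133 and 0.088) and the BRD call without replicate 1 of shLuc or 3 of S2sh7 (0.067 and 0.065).

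Cluster D gave 1 call. HOXD13 was lower with BRD, at 5.39, 5.55 and 5.37 with shLuc and 5.02, 5.09 and 5.28 with S2sh7 (-0.31 (SE 0.076, adjusted p = 0.00498)), and it lay under the PECAM1 ceiling of 5.61 there. HOXC11 was called higher with BRD, 5.97, 6.12 and 5.95 against 6.33, 6.39 and 6.14 (0.28 (SE 0.096, adjusted p = 0.0428)), a call lost without replicate 1 or 3 of shLuc or replicate 1 or 2 of S2sh7 (adjusted p = 0.120, 0.133, 0.117 and 0.159). HOXA2, HOXC9, HOXC13, HOXD1, HOXD4, HOXD8, HOXD9 and HOXD10 were called with no cDNA.

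**Figure D3:**
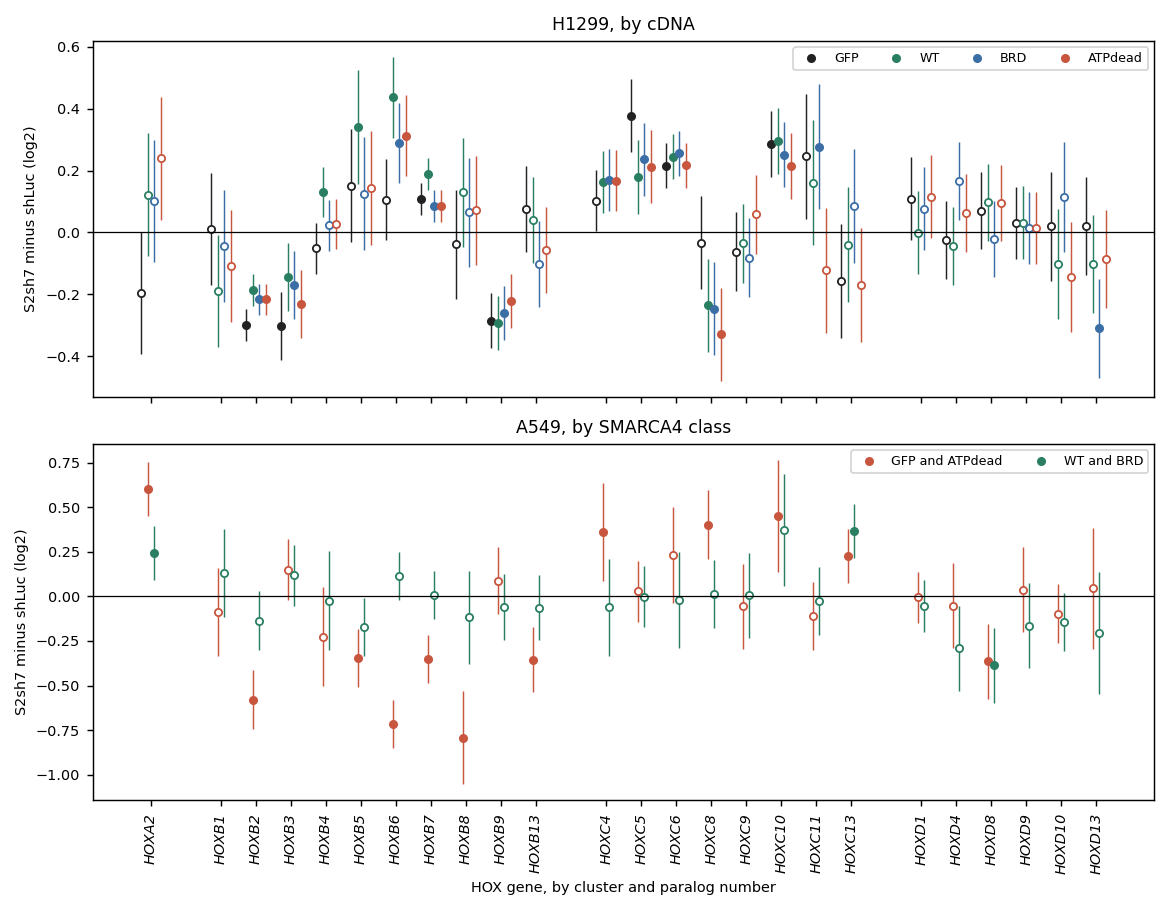
Knockdown difference (S2sh7 minus shLuc, log2, with 95% limma intervals) of the 25 tested HOX genes along the clusters, at each cDNA in H1299 (top) and in the SMARCA4 classes of A549 (bottom). Filled points were called at adjusted p under 0.05; in A549 the HOXB genes without active SMARCA4 run down to -0.79.

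The second set of comparisons asked what SMARCA2 cDNA does to HOX genes in H1299, against GFP cells. With shLuc, WT lowered 3 of 25 (HOXB6, HOXB7 and HOXC6), where 2.74% of all genes were called and 1.82% were called lower. HOXB6 differed by -0.30 (SE 0.062, adjusted p = 0.0125), HOXB7 by -0.12 (SE 0.025, adjusted p = 0.0148) and HOXC6 by -0.15 (SE 0.035, adjusted p = 0.0260). The values of these genes in the WT and GFP arrays with shLuc are given with the knockdown. The count fell to 0 without replicate 1 or 3 of GFP or replicate 1 of WT, and to 1 without replicate 2 or 3 of WT. Calls over all genes fell too, from 403 to 166 and 162 without these GFP arrays. They were 190, 134 and 291 without replicate 1, 2 or 3 of WT. HOX genes at unadjusted p under 0.05 by limma went from 8 to 7 or 6 in these settings. BRD against GFP with shLuc called 0 HOX genes (1.37% of all genes, 4 HOX genes at unadjusted p under 0.05) and ATPdead called 0 (0.122%, 4 at unadjusted p under 0.05), both by limma.

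With S2sh7, WT against GFP called 3 HOX genes where 5.06% of all genes were called: HOXB2 0.14 (SE 0.024, adjusted p = 0.00151), HOXC6 -0.12 (SE 0.035, adjusted p = 0.04999) and HOXC8 -0.30 (SE 0.072, adjusted p = 0.0170). The count was 1 without replicate 3 of GFP or replicate 2 or 3 of WT. BRD called 3 (5.38% of all genes): HOXB2 0.090 (adjusted p = 0.0327), HOXC8 -0.25 (0.0460) and HOXD13 -0.38 (0.00449), and 1 without replicate 2 or 3 of GFP or replicate 1 or 3 of BRD. ATPdead called HOXC8 alone (0.803% of all genes, -0.38 (SE 0.072, adjusted p = 0.0138)), lost without replicate 3 of GFP or replicate 2 or 3 of ATPdead. These 3 comparisons share the GFP arrays. BRD against WT with S2sh7 called 0 HOX genes (0.0612% of all genes, 4 at unadjusted p under 0.05), and ATPdead against WT called 0 (3.02%, 2 at unadjusted p under 0.05).

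HOXC8 and HOXB2 were called against GFP with more than 1 of the cDNAs. For HOXC8 the GFP arrays read 7.17, 7.29 and 7.32, the WT arrays 7.18, 6.80 and 6.89, the BRD arrays 7.05, 7.01 and 6.95 and the ATPdead arrays 6.97, 6.87 and 6.79. One WT array overlapped the GFP arrays, and no BRD or ATPdead array did. For HOXB2 all arrays with WT, BRD or ATPdead (10.64 to 10.76) lay above the GFP arrays (10.57 to 10.61) and under the shLuc arrays, and the ATPdead difference was not called (0.063, adjusted p = 0.276).

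The test of whether the knockdown difference itself changed with a cDNA called 0 HOX genes for WT (2.28% of all genes, 7 HOX genes at unadjusted p under 0.05), for BRD (0.558%, 4) and for ATPdead (0.0612%, 5), by limma. The smallest adjusted p for WT was that of HOXB6, whose knockdown difference was 0.33 more with WT than with GFP (95% interval 0.15 to 0.52, adjusted p = 0.0563). HOXB2 gave 0.11 (0.042 to 0.18, adjusted p = 0.0955) and HOXB4 0.18 (0.068 to 0.30, adjusted p = 0.0944). The 3 tests share the GFP arrays.

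In A549, HOXA2, HOXC10 and HOXC13 were called higher and HOXB5 and HOXD8 lower with S2sh7 over the 4 cDNAs. These were 5 of 25 HOX genes, a share near the 21.1% of all genes called (12% higher, 9.06% lower). The groups have 1 array each, so the 4 pairs of arrays with the same cDNA stood in for replicates in a limma fit with terms for cDNA and shRNA. Without any 1 pair, 0 HOX genes were called, and genes called in all came to 101, 376, 1676 and 8 without the GFP, WT, BRD and ATPdead pair. HOXA2 rose from 5.10, 5.38, 5.36 and 5.16 with GFP, WT, BRD and ATPdead to 5.80, 5.64, 5.58 and 5.66 (0.42 (SE 0.095, adjusted p = 0.0385)), higher in 4 of 4 pairs. HOXD8 fell from 6.93, 6.81, 6.83 and 6.64 to 6.43, 6.43, 6.44 and 6.41 (-0.38 (SE 0.064, adjusted p = 0.0250)), lower in 4 of 4. All 4 arrays with S2sh7 lay below all 4 with shLuc.

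HOXC10 read 4.71, 4.46, 4.63 and 4.62 with shLuc and 5.35, 4.93, 4.91 and 4.89 with S2sh7 (0.41 (SE 0.081, adjusted p = 0.0305)), higher in 4 of 4 pairs. HOXC13 read 5.84, 5.84, 5.94 and 5.80 with shLuc and 6.10, 6.27, 6.24 and 6.00 with S2sh7 (0.30 (SE 0.062, adjusted p = 0.0336)). HOXB5 read 6.58, 6.58, 6.73 and 6.56 with shLuc and 6.18, 6.46, 6.51 and 6.27 with S2sh7 (-0.26 (SE 0.066, adjusted p = 0.0480)). Both kept 1 direction in 4 of 4 pairs, and no shLuc array overlapped an S2sh7 array. HOXA2, HOXC10 and HOXC13 lay under the PECAM1 ceiling of 6.56 in every A549 array, and HOXB5 and HOXD8 in some. The HOXB5 call sits at the threshold, and its other probe set, the brighter one in A549, gave -0.097 (adjusted p = 0.233).

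The A549 arrays were also split by whether the SMARCA4 cDNA has a working ATPase by its label. In cells without one, all cluster B calls on the brightest probe sets were lower with S2sh7. GFP and ATPdead cells were 1 class and WT and BRD cells the other, with 2 arrays per class and hairpin, so the spread is that between different constructs. Without active SMARCA4, 12 of 25 HOX genes were called (5 higher, 7 lower), a share near the 49.8% of all genes called (27% higher, 22.9% lower). On the brightest probe sets of cluster B, 6 of 10 genes were lower and 0 higher, where 22.9% of all genes were called lower. The cluster median was -0.35 against 0.0040 over all genes. Cluster B is set apart here after its values were seen, and no test was made of it. With active SMARCA4, 3 of 25 were called (21.3% of all genes): HOXA2 0.24, HOXC13 0.37 and HOXD8 -0.39 (adjusted p = 0.0344, 0.00708 and 0.0215). HOXA2 and HOXD8 were lost without any 1 of the 4 arrays (adjusted p from 0.063 to 0.156) and HOXC13 without the shLuc array with WT (0.061). The count was then 1, of a gene that is none of these 3, and it was also 1 without either BRD array.

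HOXB8 fell by 42.3% without active SMARCA4. With shLuc HOXB8 read 7.59 with GFP, 7.93 with ATPdead, 7.89 with WT and 7.91 with BRD, and with S2sh7 6.87, 7.06, 7.76 and 7.81. The difference was -0.79 (SE 0.11, adjusted p = 0.000621) without active SMARCA4 and -0.12 (adjusted p = 0.508) with it. The GFP and ATPdead arrays with S2sh7 lay below all other HOXB8 arrays.

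HOXB6 fell by 39.1%. With shLuc HOXB6 read 7.18 with GFP, 7.23 with ATPdead, 7.10 with WT and 7.08 with BRD, and with S2sh7 6.50, 6.48, 7.17 and 7.25. The difference was -0.72 (SE 0.058, adjusted p = 3.12e-05) without active SMARCA4 and 0.12 (adjusted p = 0.198) with it, and the same pair of arrays stood below the rest.

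HOXB2 followed with a fall of 33.1%, on a level under the 6.56 ceiling. With shLuc HOXB2 read 6.25 with GFP, 6.16 with ATPdead, 6.16 with WT and 6.01 with BRD, and with S2sh7 5.62, 5.63, 5.91 and 6.00. The difference was -0.58 (SE 0.071, adjusted p = 0.000289) without and -0.14 (adjusted p = 0.218) with active SMARCA4. HOXB7 fell from 9.66 to 9.34 with GFP and from 9.64 to 9.25 with ATPdead (-0.35 (SE 0.058, adjusted p = 0.00141)). With WT it went from 9.69 to 9.74 and with BRD from 9.74 to 9.72 (0.0083, adjusted p = 0.939). HOXB5 fell on its main probe set (-0.35, adjusted p = 0.00393), while its other one gave -0.11 (adjusted p = 0.218). HOXB13 also fell (-0.36, adjusted p = 0.00625). With shLuc HOXB13 read 7.04 with GFP, 7.01 with ATPdead, 6.85 with WT and 6.93 with BRD, and with S2sh7 6.65, 6.69, 6.93 and 6.72. HOXB1, HOXB3, HOXB4 and HOXB9 were not called on the brightest probe set, but the other HOXB9 probe set was called higher.

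**Figure D4:**
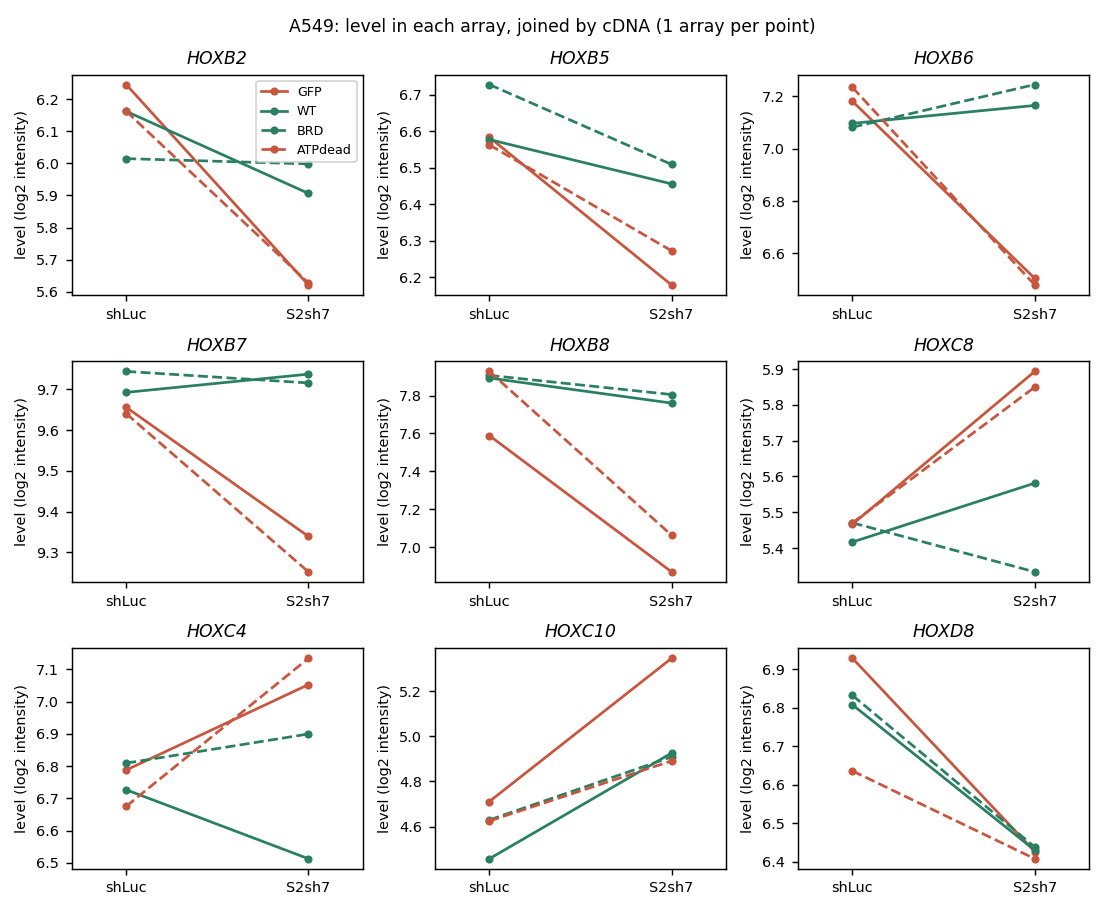
Log2 RMA intensity of 9 HOX genes in each A549 array with shLuc and S2sh7, joined by cDNA (red, GFP and ATPdead; green, WT and BRD; solid for GFP and WT, dashed for ATPdead and BRD). For HOXB6, HOXB7 and HOXB8 the red lines drop and the green lines change by -0.13 to 0.16, for HOXC8 the red lines rise, and for HOXD8 all 4 lines drop; each panel has its own axis.

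In the other clusters most calls without active SMARCA4 were higher. In cluster C 4 of 8 were higher and 0 lower, where 27.0% of all genes were called higher. HOXC8 read 5.47 with GFP and 5.47 with ATPdead under shLuc and 5.89 and 5.85 under S2sh7 (0.40 (SE 0.083, adjusted p = 0.00443)), on a level under the marker ceiling. With WT it read 5.42 and 5.58 and with BRD 5.47 and 5.33. HOXC4 (0.36, adjusted p = 0.0346), HOXC10 (0.45, 0.0248) and HOXC13 (0.23, 0.0212) also rose. With shLuc HOXC4 read 6.79 with GFP, 6.68 with ATPdead, 6.73 with WT and 6.81 with BRD, and with S2sh7 7.05, 7.13, 6.51 and 6.90. The HOXC4 call was lost without any 1 of its 4 arrays, and those of HOXC10 and HOXC13 without the shLuc or S2sh7 array with GFP or the shLuc array with ATPdead (adjusted p from 0.057 to 0.152 over these). The HOXC10 difference was 0.22 without the S2sh7 array with GFP and 0.68 without that with ATPdead. HOXA2 rose by 0.60 (adjusted p = 0.000154) and HOXD8 fell (-0.37, adjusted p = 0.0108), by 0.22 without the shLuc array with GFP. HOXC6 was 0.23 and not called (adjusted p = 0.135): its GFP pair differed by 0.41 and its ATPdead pair by 0.060.

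The difference of the knockdown between the classes, active minus inactive, was tested and called for 6 of 25 HOX genes where 23.9% of all genes were called (12% positive, 11.9% negative), a share near that of all genes. It was 0.83 (SE 0.082, adjusted p = 0.000446) for HOXB6, 0.68 (SE 0.16, adjusted p = 0.0184) for HOXB8, 0.44 (SE 0.10, adjusted p = 0.0160) for HOXB2 and 0.36 (SE 0.082, adjusted p = 0.0164) for HOXB7. It was -0.39 (SE 0.12, adjusted p = 0.0479) for HOXC8 and -0.36 (SE 0.093, adjusted p = 0.0277) for HOXA2. The count was 3 without the shLuc array with GFP or the shLuc array with WT and 2 without the shLuc array with BRD. HOXB6 was called without each of the 8 arrays, and the others were lost without at least 1.

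Active against inactive SMARCA4 within a hairpin gave a further view of the same arrays. Under shLuc, where SMARCA2 is present, 0 HOX genes and 0% of all genes were called by limma, with 2 HOX genes at unadjusted p under 0.05. Under S2sh7, 9 of 25 were called, a share near the 38.7% of all genes called (17.8% higher, 20.9% lower). Higher with active SMARCA4 were HOXB8 (0.82), HOXB6 (0.71), HOXB7 (0.43), HOXB2 (0.33), HOXC11 (0.33), HOXB5 (0.26) and HOXC13 (0.21). Lower were HOXC8 (-0.41) and HOXC4 (-0.39), with adjusted p from 6.50e-05 to 0.0351 over the 9. The calls of HOXB5, HOXC4, HOXC11 and HOXC13 were each lost without 2 or 3 of the 4 arrays, and HOXC4 was -0.19 without the WT array.

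Side by side, the lines moved some HOX genes alike and others apart, and the difference between lines was not tested. HOXB2 fell and HOXC10 rose with the knockdown at all 4 cDNAs in H1299 and without active SMARCA4 in A549. HOXC10 was over log2 5 in 1 A549 array, and its difference in that class ran from 0.22 to 0.68 when 1 array was left out. With active SMARCA4 it gave 0.37, and the class difference was -0.077, neither of them called. On the brightest probe sets, HOXB3 (-0.30 with GFP in H1299, 0.15 without active SMARCA4 in A549, adjusted p = 0.130) and HOXB9 (-0.28 and 0.089, adjusted p = 0.400) were called lower in H1299 and not called in A549. The other HOXB9 probe set was called higher without active SMARCA4 in A549, as given with the probe sets below. HOXB7 rose in H1299 (0.11 with GFP) and fell without active SMARCA4 in A549 (-0.35). HOXB6 fell in that A549 class (-0.72), and in H1299 it was not called with GFP (0.11, adjusted p = 0.221) and rose with the other cDNAs (0.29 to 0.44). HOXC8 rose in that class (0.40), and in H1299 it was not called with GFP (-0.034, adjusted p = 0.763) and fell with the other cDNAs (-0.33 to -0.23). HOXC5 (0.38 with GFP in H1299, 0.028 without active SMARCA4 in A549) was called in H1299 alone.

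Of the 28 members, 13 have more than 1 probe set and 6 more than 1 tested one, and these mostly gave the same sign. The brightest probe sets of HOXB5, HOXB6, HOXB7, HOXB8, HOXC6, HOXC13 and HOXD1 are of the kind that can match more than 1 transcript. In the fit of each probe set on its own, the 3 HOXB7 probe sets gave -0.35, -0.39 and -0.30 without active SMARCA4 in A549 (adjusted p = 0.00199, 0.00147 and 0.0172), all called. The dimmer HOXB8 probe set gave -0.29 there (adjusted p = 0.0198), and the dimmer HOXB13 one -0.29 (adjusted p = 0.00648). The second HOXB5 probe set, at 6.73 to 7.11 against 6.18 to 6.73 in A549, was not called there, as given with the HOXB5 falls. When every probe set of a gene was averaged, HOXB6 was -0.47 and HOXB5 -0.23 there, both still called. In H1299 that average gave 0.24 with WT and 0.21 with ATPdead for HOXB6 and 0.22 with WT for HOXB5, still called, and 0.043 with BRD for HOXB7, not called (adjusted p = 0.216). The HOXB3 calls with WT, BRD and ATPdead in H1299 were also lost with that average, and its call with GFP was kept. The HOXB9 probe sets both fell in H1299 with GFP, by 0.28 and 0.38, but disagreed in A549 without active SMARCA4, at 0.089 (adjusted p = 0.419) and 0.55 (adjusted p = 0.000761). The dimmer HOXB3 probe set gave -0.23 with GFP in H1299 and was not called (adjusted p = 0.200), and the second HOXB5 one gave 0.11 with WT (adjusted p = 0.285).

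The RNAs of proteins that work with HOX factors, or keep HOX genes silent or active, were counted in the same way. Knockdown is given with GFP in H1299, where 13.6% of all genes were called higher and 16.1% lower, and over the 4 cDNAs in A549, where 12.0% and 9.06% were. The medians over all genes were 0.013 and 0.0057. Of 8 cofactors, genes of the PBX and MEIS family proteins that bind DNA beside HOX, 2 were higher and 0 lower in H1299 (median 0.040), namely MEIS2 0.17 (adjusted p = 0.000323) and PBX2 0.19 (adjusted p = 0.000871). In A549 1 was higher and 1 lower (median 0.028), MEIS3 0.31 (adjusted p = 0.0435) and PBX3 -0.36 (adjusted p = 0.0433).

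Of 30 Polycomb group genes, 6 were higher and 8 lower in H1299 (median -0.013) and 6 and 3 in A549 (median 0.16). The calls with the smallest adjusted p in H1299 were falls of ASXL1 (-0.53), a partner of the BAP1 deubiquitinase, PCGF5 (-0.44) and PHC2 (-0.37), subunits of Polycomb repressive complex 1, and MTF2 (-0.26), an accessory subunit of complex 2. In A549 PCGF5 (-0.71) and PHC3 (-0.29) fell and RYBP (0.42) and PHF19 (0.37) rose. Of 17 trithorax-type activators 4 were higher and 1 lower in H1299 (median 0.016), among them the methyltransferase KMT2A (0.22) and KMT2D (0.24), DPY30 (0.16) and PSIP1 (0.12). In A549 3 were higher and 2 lower (median 0.093), with KMT2D 0.49, DPY30 0.24, RBBP5 -0.44 and AFF1 -0.39.

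Of 9 tested noncoding RNAs of the clusters, 0 were higher and 1 lower in H1299 (median 0.050): the probe set annotated as MIR10A, a locus of cluster B, fell by 0.37. In A549 1 was higher and 0 lower (median -0.019), HOXD-AS2 0.37 (adjusted p = 0.0334). HOTAIR, the cluster C RNA, lay at 2.04 to 3.01 over all arrays and was not tested. Of 11 genes beside the clusters, 1 was higher and 0 lower in H1299 (median 0.065), CALCOCO1 0.18 (adjusted p = 0.0365). In A549 1 was higher and 2 lower (median -0.17), with SMUG1 0.34 (adjusted p = 0.0215), HIBADH -0.94 (adjusted p = 0.0276), which lies beside cluster A, and TTLL6 -1.08 (adjusted p = 0.0307), which lies beside cluster B.

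Of 52 other homeobox genes tested, 10 were higher and 5 lower in H1299 (median 0.052) and 10 and 4 in A549 (median 0.037). LHX2, a forebrain and hair follicle factor, rose in both lines (0.35 and 1.80). MSX1 fell (-0.75) and HLX rose (0.78) in H1299, and MSX2 (0.58) rose and MNX1 (-0.80) fell in A549. Of 9 tested genes described elsewhere as targets of HOX proteins, 3 were higher and 1 lower in H1299 (median -0.028), with the secreted protein SPP1 3.37, the ephrin receptor EPHA7 0.88 and the adhesion protein NCAM1 0.21 higher and the protease PLAU -0.73 lower. In A549 EPHA7 (0.83) rose and PLAU (-0.85) fell (median 0.015 over the 9).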

How the data were processed

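RNA from 24 H1299 and 8 A549 samples was hybridised to HG-U133 Plus 2.0 arrays. The authors deposited 1 linear RMA intensity per probe set; the tools named in the submitters' processing notes are limma and RMA. A genome build and versions are not given in the sources used here. The log2 of the deposited intensity was taken with no pseudocount. Gene symbols came from the platform annotation: 41097 of 54675 probe sets had 1 symbol, 1801 several and 11777 none. The probe set with the highest mean over all arrays was kept per gene, and 14695 genes with log2 over 5 in 3 or more arrays were tested.

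Each line was fitted alone in limma 3.58.1 (R 4.3.3) with eBayes and Benjamini-Hochberg adjustment over all tested genes, with calls at adjusted p under 0.05. H1299 had 1 mean per group (16 residual degrees of freedom). A549 had terms for cDNA and shRNA (3 degrees of freedom) or 1 mean per class and shRNA (4). The classes rest on the cDNA labels. Replicate correlations in H1299 were 0.9976 to 0.9988, and the number of arrays limits the precision. The scripts were tested on simulated data. The HOX genes, the lists and the tests were chosen with earlier results of these data known. All members are accounted for, values in every array of a comparison are given for most members called in it, and up to 4 called genes with the smallest adjusted p are named from each other list. Alternatives were the mean of a gene's probe sets, each probe set alone, no filter or log2 over 6, repeated quantile normalization, centring, trended robust eBayes, weights per array, a fit of just the arrays compared, a replicate block, and leaving out arrays. Promoter sequences are RefSeq's (GRCh38.p14), and motifs and figures were made with Python 3.11.15 and matplotlib 3.10.9.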

Additional observations from a re-analysis of the deposited data

Results flagged for a closer look

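In A549 the knockdown difference, tested by limma between cells with active SMARCA4 (WT and BRD) and cells without (GFP and ATPdead), differed between these classes for 6 of 25 HOX genes, a share near the 23.9% of all genes called in this test. Active minus inactive was 0.83 for HOXB6, 0.68 for HOXB8, 0.44 for HOXB2 and 0.36 for HOXB7, which fell without active SMARCA4. It was -0.39 for HOXC8 and -0.36 for HOXA2, which rose without it. HOXA2 was also higher with S2sh7 in cells with active SMARCA4, by 0.24. Each class holds 2 arrays per hairpin, and of the 6 calls HOXB6 alone was kept without each of the 8 arrays, with a count down to 2.

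HOXB5 was lower with S2sh7 in all 4 A549 pairs (-0.26 over the 4 cDNAs) and higher in all 4 H1299 comparisons, of which the one with WT was called (0.34). The other HOXB5 probe set gave -0.097 over the 4 cDNAs of A549 and was not called. The difference between the lines was not tested.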

How the results depend on the processing

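No call of a single HOX gene changed direction in any alternative run; of 86 gene calls, 43 were kept in every alternative and 43 were lost in at least 1. With only the arrays compared in the fit, the number of HOX genes called was 7 for the H1299 knockdown with WT, and 0 for WT against GFP with shLuc and for WT, BRD and ATPdead against GFP with S2sh7. Centring each array gave 1 for WT against GFP with shLuc. Fitting each probe set alone or using no filter gave 1 for BRD against GFP with S2sh7. ATPdead against WT with S2sh7 gave 1 with trend and robust eBayes. The change of the knockdown with WT gave 1 with a filter of log2 over 6, 1 with repeated quantile normalization, 1 with array weights and 3 with trend and robust eBayes. The HOXB5 call over the 4 cDNAs of A549 was lost in 9 of 11 alternatives.

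Leaving out 1 array gave ranges of 7 to 8 for the H1299 knockdown with GFP, 7 to 12 with WT, 8 to 12 with BRD and 10 to 10 with ATPdead. They were 0 to 3 for WT against GFP with shLuc, 1 to 3 for WT and for BRD against GFP with S2sh7, 0 to 1 for ATPdead against GFP with S2sh7, and 0 to 1 for the change of the knockdown with WT, where 1 gene was called without replicate 2 of shLuc with GFP, 3 of shLuc with WT, 3 of S2sh7 with GFP or 1 of S2sh7 with WT. In A549 they were 0 to 0 over the 4 cDNAs (leaving out a pair), 9 to 13 without and 1 to 2 with active SMARCA4, 2 to 6 for the difference between the classes and 7 to 8 for active against inactive under S2sh7. The remaining counts stayed at 0 throughout. Every such fit assumes that a group left with fewer arrays varies like the others.

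Replicate numbers in H1299 did not pair the arrays: deviations of same-numbered arrays correlated at -0.005 on average (-0.29 to 0.28, 12 of 84 over 0.1), and 9 of 24 arrays correlated best with their own number. With a replicate block the HOX counts were 7, 11, 12 and 10 for the knockdown with GFP, WT, BRD and ATPdead, 3 for WT against GFP with shLuc, and 2, 2 and 1 for WT, BRD and ATPdead against GFP with S2sh7. The scalings moved the median of all genes to at most 0.062. Levels near those of PECAM1 lie close to background, where array differences understate change.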

Other observations

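Paralogs, which share a number across clusters and descend from 1 ancestral gene, did not move as groups in A549 cells without active SMARCA4. In group 8, HOXB8 fell (-0.79) and HOXD8 fell (-0.37) while HOXC8 rose (0.40). In group 13, HOXB13 fell (-0.36), HOXC13 rose (0.23) and HOXD13 gave 0.044 without a call. In H1299 with GFP, HOXB9 fell (-0.28), while HOXC9 and HOXD9 gave -0.062 and 0.030 without a call. These groups were picked after their values were seen and no test was made of them.

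Among the noncoding RNAs of the clusters, HOXB-AS1, which lies in cluster B, read 6.44 to 6.78 in H1299 and 5.24 to 5.72 in A549. HOXA-AS2 read 4.31 to 4.78 in H1299 and 6.27 to 6.48 in A549, which is the order in which HOXA2 stood. Levels of the lines are on separate scales.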
